A study of Mus musculus with 48 samples.

Results

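The 8 hepatic sulfotransferase genes Sult2a1, Sult2a2, Sult2a5, Sult2a6, Sult3a1, Sult1e1, Sult1a1 and Sult1d1 were followed in the livers of FCG mice, in which the gonad type does not depend on the sex chromosomes and which are congenic on C57BL/6. They were taken by symbol from a table of 55414 genes that lists 20 sulfotransferases (Sult genes) in all. They were picked with their differences between mice with ovaries and mice with testes in view. For that reason the gonadal, castration and ovariectomy effects on these 8 genes are given as descriptions, with no p-value, and the counts of genes past the threshold in them are printed beside the share of all genes without reading anything from them. The Ensembl identifiers are ENSMUSG00000078798 for Sult2a1, ENSMUSG00000070811 for Sult2a2, ENSMUSG00000078799 for Sult2a5, ENSMUSG00000070810 for Sult2a6, ENSMUSG00000069668 for Sult3a1, ENSMUSG00000029272 for Sult1e1, ENSMUSG00000030711 for Sult1a1 and ENSMUSG00000029273 for Sult1d1.

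Liver RNA was sequenced from 48 mice on a high-fat diet (HFD, 60% of calories from fat), 1 library from each, and every one of the 8 groups held 6 mice. In FCG mice the testis-determining gene Sry is deleted from the Y chromosome (XY-) and restored as an autosomal transgene (SryTg), so that the genotypes XX and XY- form ovaries and the genotypes XX;SryTg and XY-;SryTg form testes. They are named here XX Ov, XY- Ov, XX Te and XY- Te. Each genotype was studied with intact gonads or after gonadectomy (GDX) at 75 days of age, which removed ovaries (ovariectomy) or testes (castration). The HFD was started at 15 to 17 weeks of age in every mouse and, by the labels, lasted 11 weeks in intact and 15 weeks in GDX mice. By these labels GDX mice were also older at the end of the diet. Gonadectomy, the duration of the diet and this age cannot be told apart. Every Y chromosome lacked Sry, and all mice with testes carried the transgene, so that testes and the transgene cannot be told apart. Libraries held 13071874 to 20045141 reads on genes (median 16577748), and levels are read counts scaled to library size (CPM) after correction by the trimmed mean of M-values (TMM). The 3-read floor was 0.150 to 0.230 CPM.

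Sulfotransferases (SULTs) transfer a sulfonate group from the donor PAPS (3′-phosphoadenosine 5′-phosphosulfate) to a hydroxyl or amino group, which makes steroids, bile acids and phenols more water-soluble. The SULT2A enzymes act on hydroxysteroids such as dehydroepiandrosterone and on bile acids, SULT1E1 has a high affinity for estrogens, SULT1A1 acts on simple phenols, and SULT1D1 acts on catecholamines and related amines. Several hepatic Sult genes of rodents are known for higher expression in females, where the male pattern of growth hormone secretion represses them.

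The Sult2a genes lie side by side on chromosome 7 and are close copies, which bears on how reads can be assigned. The first coding exon (136 bases) is shown because it shows how alike the copies are. Capitals mark bases that differ from Sult2a1, and each sequence is given 5′ to 3′ on the strand of the gene, from the NCBIM37 build, which is not the GRCm39 build of the deposited counts.
Sult2a1: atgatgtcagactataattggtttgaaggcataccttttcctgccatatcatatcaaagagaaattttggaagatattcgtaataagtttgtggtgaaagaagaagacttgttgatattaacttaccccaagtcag
Sult2a2: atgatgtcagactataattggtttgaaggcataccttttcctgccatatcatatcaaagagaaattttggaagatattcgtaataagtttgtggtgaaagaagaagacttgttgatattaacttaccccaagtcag
Sult2a5: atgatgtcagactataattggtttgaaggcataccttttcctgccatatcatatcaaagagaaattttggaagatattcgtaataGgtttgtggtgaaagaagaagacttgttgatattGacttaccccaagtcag
Sult2a3: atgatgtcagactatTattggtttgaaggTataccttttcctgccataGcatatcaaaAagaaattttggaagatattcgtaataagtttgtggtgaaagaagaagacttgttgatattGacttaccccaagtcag
Sult2a6: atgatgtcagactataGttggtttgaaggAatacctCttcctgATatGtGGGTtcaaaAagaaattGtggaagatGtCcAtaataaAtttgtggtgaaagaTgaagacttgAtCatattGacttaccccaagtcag
In that build the exon of Sult2a1 is at chr7:14422570-14422705 (minus strand), that of Sult2a2 at chr7:14318908-14319043 (plus), that of Sult2a5 at chr7:14209394-14209529 (plus), that of Sult2a3 at chr7:14708207-14708342 (minus) and that of Sult2a6 at chr7:14840047-14840182 (minus). Sult2a2 had 0 differences from Sult2a1, Sult2a5 had 2, Sult2a3 had 5 and Sult2a6 had 20. Over the first 3 coding exons (472 bases), identity with Sult2a1 was 98.31% for Sult2a2, 95.13% for Sult2a5 and 87.71% for Sult2a6. Of all 50-base stretches of the transcript, 33.3% in Sult2a1, 63.4% in Sult2a2 and 36.9% in Sult2a5 also occurred in another gene, against 7.1% in Sult2a6, 6.5% in Sult3a1, 1.0% in Sult1a1 and 0% in Sult1e1 and Sult1d1. Multimapping reads were counted apart from genes, so that reads from such stretches may be missing from these genes to an unequal extent. The levels of Sult2a1, Sult2a2 and Sult2a5 relative to one another are therefore uncertain. The summed reads of the Sult2a genes other than Sult2a8 are given beside the fitted differences, but the sum does not restore reads left out. In the 35 mice with at least 100 reads on Sult2a1 to Sult2a6, Sult2a2 took 45.9% to 84.1% of these reads (median 61.6%), Sult2a1 7.9% to 39.4% (25.2%) and Sult2a5 0.0% to 5.6% (2.6%).

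**Figure D1:**
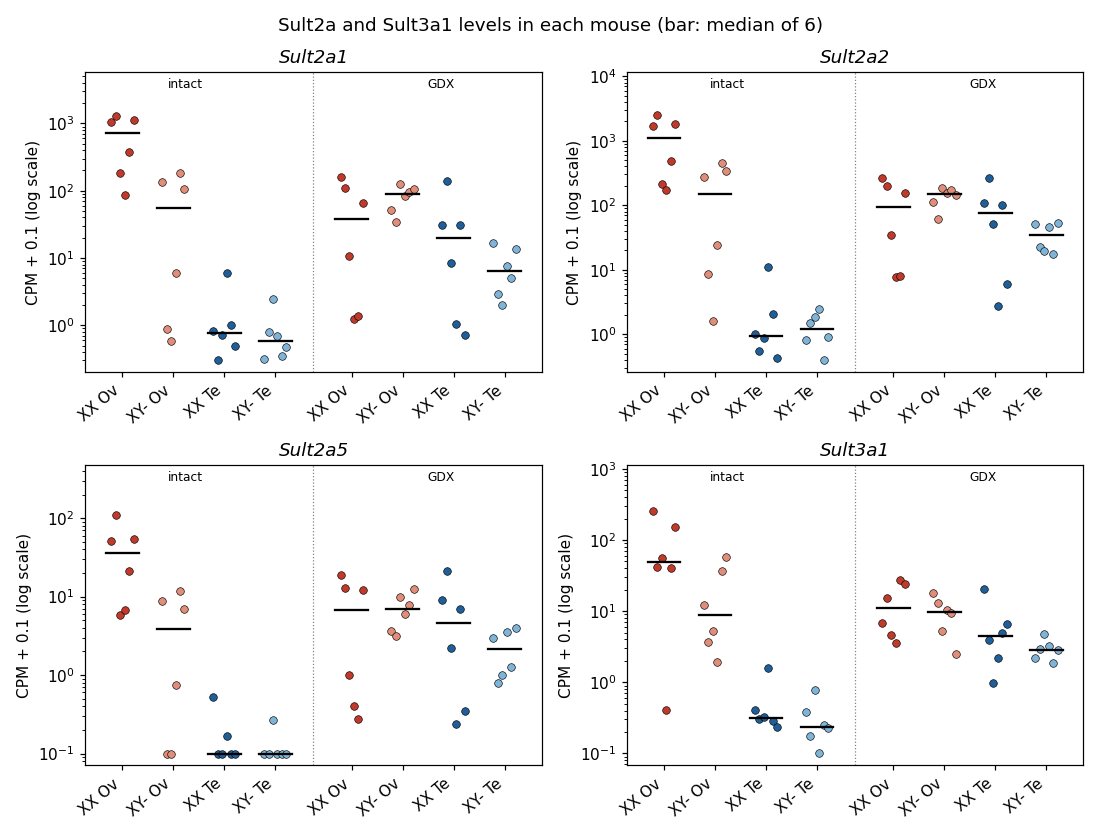
Levels of Sult2a1, Sult2a2, Sult2a5 and Sult3a1 in each of the 48 mice, as CPM + 0.1 on a log axis, by group, with bars at the median of 6 mice. Intact mice with testes have the lowest medians in each panel, and intact XY- Ov mice spread from near the floor to Sult2a2 levels of 448 CPM.

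Sult2a1, Sult2a2 and Sult2a5 were highest in intact XX Ov mice and near the detection floor in most intact mice with testes, while intact XY- Ov mice ranged from that floor up to levels found in XX Ov mice. All 4 GDX groups had medians below intact XX Ov and above both intact testes groups. Sult2a2 took the largest share of the reads counted on Sult2a1 to Sult2a6. It had 171 CPM in the lowest, 1086 CPM in the median and 2518 CPM in the highest intact XX Ov mouse, and 1.48, 151 and 448 CPM in intact XY- Ov mice. In intact mice with testes it had 0.330, 0.850 and 11.1 CPM in XX Te and 0.300, 1.10 and 2.33 CPM in XY- Te. All XX Ov mice thus lay above all mice with testes, whereas the XY- Ov mice overlapped the XX Te mice. After GDX, Sult2a2 had 7.49, 93.6 and 260 CPM in XX Ov, 61.0, 151 and 183 CPM in XY- Ov, 2.60, 75.4 and 263 CPM in XX Te and 17.7, 34.1 and 53.0 CPM in XY- Te mice. Ordered by median, neighbouring groups overlapped at each step, except that GDX XY- Te mice (34.1 CPM) lay above all intact XY- Te mice.

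Sult2a1, a hydroxysteroid and bile acid sulfotransferase, was likewise highest in intact XX Ov mice. Its level was 86.2 CPM in the lowest, 714 CPM in the median and 1283 CPM in the highest intact XX Ov mouse, and 0.478, 55.8 and 183 CPM in intact XY- Ov mice. Intact mice with testes had 0.205, 0.674 and 5.95 CPM in XX Te and 0.214, 0.485 and 2.37 CPM in XY- Te. The XX Ov mice stood apart from both groups with testes and the XY- Ov mice did not. After GDX the levels were 1.15, 37.6 and 157 CPM in XX Ov, 33.7, 90.1 and 128 CPM in XY- Ov, 0.628, 19.5 and 139 CPM in XX Te and 1.88, 6.27 and 16.9 CPM in XY- Te mice. All neighbours in the order of medians overlapped.

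Sult2a5, a further copy with the fewest reads of these 3 genes, had 5.65, 36.1 and 111 CPM in the lowest, median and highest intact XX Ov mouse and 0, 3.71 and 11.8 CPM in intact XY- Ov mice. In intact mice with testes only 10 reads were counted on it, 8 in the 6 XX Te and 2 in the 6 XY- Te mice. By contrast, 4085 reads were counted in the 12 intact mice with ovaries and 854 in the 12 castrated mice. Per read on genes the ratio of ovaries to testes was 390 (95% exact interval from counting error alone, 212 to 813). After GDX, Sult2a5 had 0.172, 6.56 and 18.7 CPM in XX Ov, 3.03, 6.82 and 12.3 CPM in XY- Ov, 0.137, 4.50 and 21.3 CPM in XX Te and 0.686, 2.03 and 3.86 CPM in XY- Te mice. Ordered by median, neighbouring groups overlapped at each step but the one from GDX XY- Te to intact XY- Te.

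Sult2a6 was not detectable as more than a trace at this depth. Only 16 reads in 7 of the 48 mice were counted on it, 9 of them in intact XX Ov mice, 3 in GDX XX Ov, 3 in GDX XX Te and 1 in a GDX XY- Ov mouse. No read was counted in the 12 intact mice with testes, in intact XY- Ov or in GDX XY- Te mice, where a count of 0 allows up to the 3-read floor in each library. It did not pass the filter on low counts, and the counts that follow refer to the 7 genes tested.

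Of the 8 genes, 6 matched a RefSeq promoter window (250 bases before to 50 after the start, GRCm38.p6), and among the Sult2a members these were Sult2a5 and Sult2a6. The 250 bases before the start are shown for this pair, the copy with up to 111 CPM and the copy with at most 0.356 CPM. The capitals mark TCATGAACT, a stretch both share, chosen after the sequences were seen.
Sult2a5: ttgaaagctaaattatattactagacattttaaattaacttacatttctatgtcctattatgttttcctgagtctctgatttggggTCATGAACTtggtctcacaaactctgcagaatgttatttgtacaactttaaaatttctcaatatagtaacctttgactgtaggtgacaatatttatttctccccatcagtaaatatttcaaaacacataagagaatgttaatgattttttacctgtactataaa
Sult2a6: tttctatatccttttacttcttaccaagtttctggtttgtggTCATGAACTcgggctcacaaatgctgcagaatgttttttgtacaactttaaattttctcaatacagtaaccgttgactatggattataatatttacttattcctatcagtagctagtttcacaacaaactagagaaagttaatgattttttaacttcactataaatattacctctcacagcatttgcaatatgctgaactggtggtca
The window of Sult2a5 is chr7:13623717-13623966 (plus strand) and that of Sult2a6 is chr7:14254871-14255120 (minus strand), both read 5′ to 3′ on the strand of the gene. TCATGAACT began 164 bases before the start in Sult2a5 and 208 bases before it in Sult2a6, and, on either strand, 0.216% of 32851 promoter windows held it. Outside the members, the window of the copy Sult2a4 also held it and that of Sult2a3 did not. Since the stretch was picked from this pair of copies, its share of all windows is no measure of how unusual the sharing is. Of the motifs searched on both strands, none of which overlapped TCATGAACT in these windows, TTCNNNGAA (in 8.3% of all windows) was in the window of Sult3a1, AGGTCA (16.3%) in that of Sult1e1 and CCAAT (37.4%) in that of Sult1a1. These matches describe the letters only.

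The gonadal effect in intact mice, ovaries against testes, was a log2 difference of 8.07 ± 1.09 (SE, 12 against 12 mice) for Sult2a5, 8.05 ± 0.88 for Sult2a2 and 7.79 ± 0.98 for Sult2a1. With the reads of all Sult2a genes but Sult2a8 summed, it was 7.94 ± 0.92. The fitted value of Sult2a5 depends on the few reads in mice with testes. All 7 tested genes passed an adjusted p of 0.05 in this contrast, where 25.3% of all 15414 tested genes did, but this is the contrast they were chosen on. Over the 12 against 12 mice none of the 8 genes had arms that did not overlap (0.597% of all genes had such arms). Within XX mice, Sult2a1, Sult2a2, Sult2a5 and Sult1a1 were above the testes group in every mouse with ovaries (the groups lay apart for 1.91% of all genes), and within XY- mice this held for Sult3a1 (3.98%). In bulk liver, fewer cells expressing a gene and less RNA per cell cannot be told apart.

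Castrated mice had more Sult2a5, Sult2a2 and Sult2a1 RNA than intact mice with testes, by 6.21 ± 1.19, 5.0 ± 0.79 and 4.06 ± 0.90 (log2 difference ± SE). Summed without Sult2a8 the difference was 4.66 ± 0.80, whereas with Sult2a8 it was −2.23 ± 0.34, the opposite direction. In this comparison 63.3% of all genes passed, and 4 of the 7 Sult genes passed as higher and Sult1d1 as lower after castration. Ovariectomized mice had less than intact mice with ovaries, with log2 differences of −1.90 ± 0.65 for Sult2a2 and −1.67 ± 0.70 for Sult2a1, while Sult2a5 had −0.92 ± 0.59. Summed, the difference was −1.82 ± 0.68 without and −2.60 ± 0.34 with Sult2a8. Here 69.4% of all genes and 6 of the 7 Sult genes passed, all but Sult2a5. With 1 surrogate variable in the model 2 of the 7 passed and Sult2a5 had 0.45. Within XX mice, ovariectomized against intact gave −3.57 ± 1.07 for Sult2a1, −3.39 ± 0.97 for Sult2a2 and −2.47 ± 0.84 for Sult2a5, whereas within XY- mice the values were 0.22 ± 0.97, −0.41 ± 0.88 and 0.63 ± 0.84. Whether the ovariectomy effect differed between XX and XY- mice was not tested. These comparisons share the intact mice with the contrast the genes were chosen on. Along with gonadal status, the share of reads outside annotated genes changed from 3.47%–6.20% in intact to 8.52%–11.3% in GDX libraries and multimapping reads from 10.7%–18.9% to 8.59%–10.8%, which cannot be told apart from GDX either.

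Sult3a1, an amine sulfotransferase known for expression in female mouse liver, had 0.312 CPM in the lowest, 48.7 CPM in the median and 255 CPM in the highest intact XX Ov mouse, and 1.85, 8.73 and 56.9 CPM in intact XY- Ov mice. In intact mice with testes it had 0.132, 0.215 and 1.49 CPM in XX Te and 0, 0.137 and 0.678 CPM in XY- Te. After GDX it had 3.51, 11.0 and 27.4 CPM in XX Ov, 2.40, 9.79 and 18.0 CPM in XY- Ov, 0.888, 4.34 and 20.3 CPM in XX Te and 1.77, 2.78 and 4.68 CPM in XY- Te mice. The XY- Ov mice lay above all intact XY- Te mice, and among the XX Ov mice 1, with 6 reads on the gene, lay within the range of the testes groups. The log2 differences were 7.16 ± 0.75 for ovaries against testes, 3.86 ± 0.79 for castration and −1.88 ± 0.51 for ovariectomy. The first 2 values rest on 58 reads in the 12 intact mice with testes, against 9890 with ovaries and 915 after castration. Per read on genes the ratio of ovaries to testes was 163 (95% exact interval from counting error alone, 126 to 214). Ordered by median, neighbouring groups overlapped except at the step from GDX XY- Te to intact XX Te.

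**Figure D2:**
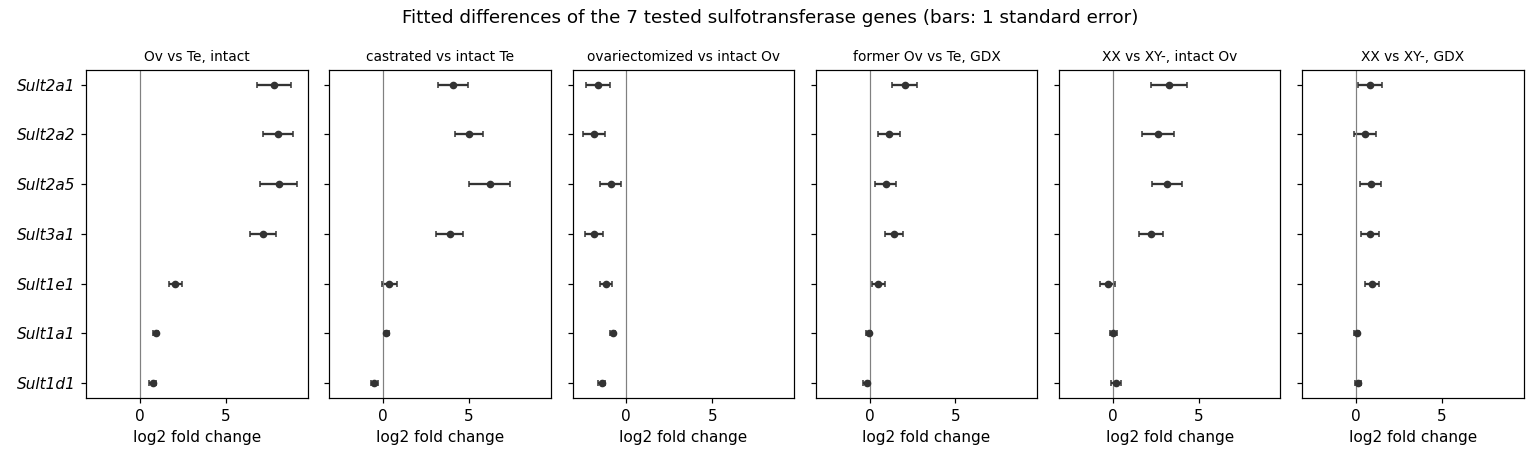
Fitted log2 fold change of the 7 tested sulfotransferase genes in 6 comparisons, with bars of 1 standard error from the fit over all 48 mice. Sult2a1, Sult2a2, Sult2a5 and Sult3a1 lie between 7.16 and 8.07 for ovaries against testes, and Sult1e1, Sult1a1 and Sult1d1 between 0.74 and 2.05.

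Sult1e1, the estrogen sulfotransferase, was expressed close to the detection floor in these livers. It had 0.208, 0.463 and 3.24 CPM in the lowest, median and highest intact XX Ov mouse and 0.451, 1.19 and 2.33 CPM in intact XY- Ov mice, which is at most 40 reads in a mouse. Intact mice with testes had 0.0564, 0.249 and 0.460 CPM in XX Te and 0.150, 0.290 and 0.572 CPM in XY- Te. After GDX, Sult1e1 had 0.362, 0.563 and 0.947 CPM in XX Ov, 0.303, 0.389 and 0.731 CPM in XY- Ov, 0.274, 0.628 and 0.949 CPM in XX Te and 0, 0.163 and 0.429 CPM in XY- Te mice. All groups overlapped their neighbours in the order of medians. The log2 difference was 2.05 ± 0.38 for ovaries against testes, 0.36 ± 0.44 for castration and −1.17 ± 0.34 for ovariectomy.

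Sult1a1, the phenol sulfotransferase, was well expressed in every mouse, and its groups differed less. Intact mice with ovaries had 385, 547 and 1093 CPM in XX Ov and 425, 583 and 975 CPM in XY- Ov. Intact mice with testes had 207, 341 and 367 CPM in XX Te and 256, 334 and 580 CPM in XY- Te. The intact XX groups did not overlap. The GDX groups lay close together, with medians from 356 to 387 CPM and single mice from 297 to 483 CPM. Its log2 differences were 0.93 ± 0.15 for ovaries against testes, 0.19 ± 0.15 for castration and −0.79 ± 0.15 for ovariectomy. Among the groups, those with intact ovaries were the highest by median.

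Sult1d1, which sulfonates catecholamines, had 214, 359 and 707 CPM in intact XX Ov and 158, 332 and 638 CPM in intact XY- Ov mice. It had 141, 222 and 293 CPM in intact XX Te and 104, 266 and 351 CPM in intact XY- Te mice. After GDX the 4 medians lay between 141 and 163 CPM and single mice between 105 and 233 CPM. The 4 GDX groups were the lowest 4 by median, and all neighbours overlapped. The log2 difference was 0.74 ± 0.20 for ovaries against testes, −0.52 ± 0.20 for castration and −1.43 ± 0.20 for ovariectomy. Sult1d1 was the only 1 of the 7 genes whose level was lower after both operations.

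**Figure D3:**
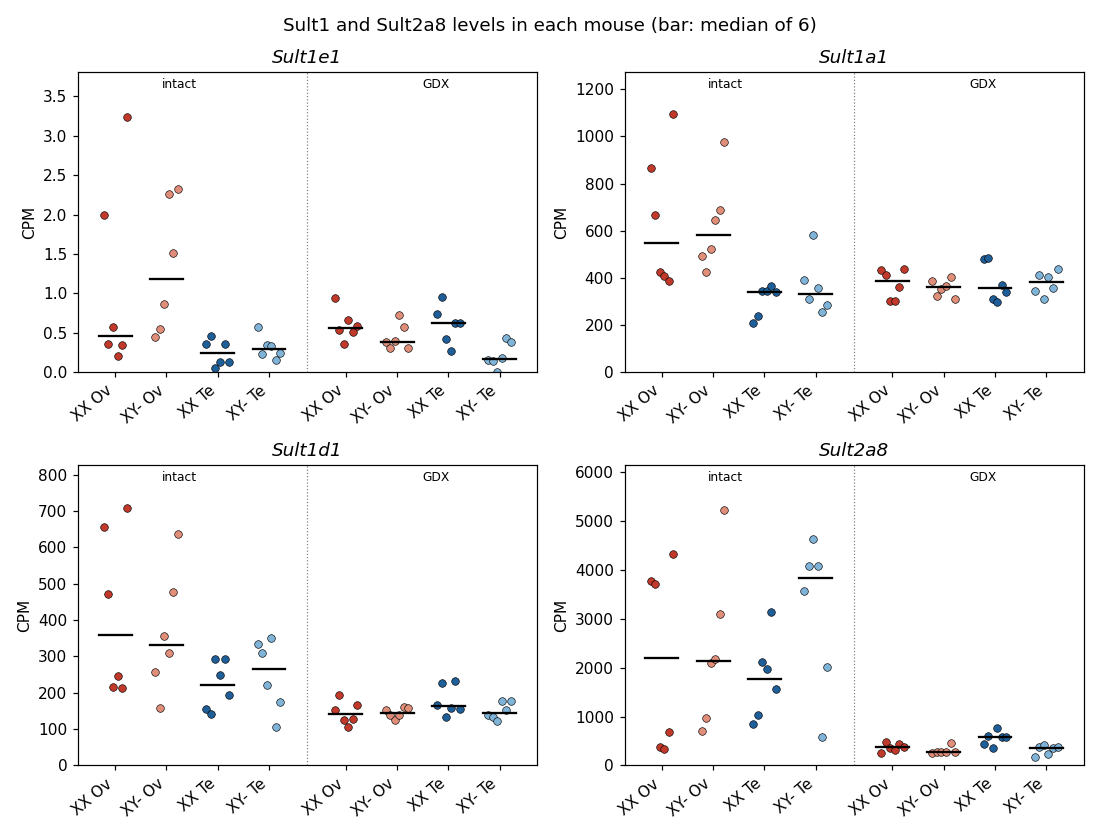
Levels of Sult1e1, Sult1a1, Sult1d1 and, for contrast, Sult2a8 in each of the 48 mice, in CPM on a linear axis from 0, by group, with bars at the median of 6 mice. Sult2a8 lies lower in the GDX groups, with medians of 277 to 581 CPM against 1775 to 3828 CPM in intact groups.

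After GDX the comparison of former ovaries with former testes used none of the mice behind the choice of genes. None of the 7 genes passed an adjusted p of 0.05 in the quasi-likelihood fit of edgeR, nor in DESeq2, while Sult2a1 and Sult3a1 had an unadjusted p under 0.05 in both. In this comparison 0.0908% of all genes passed. The log2 difference was 2.06 ± 0.72 for Sult2a1 (95% interval 0.60 to 3.51, edgeR adjusted p = 0.980), 1.42 ± 0.53 for Sult3a1 (0.34 to 2.49, adjusted p = 1), 1.15 ± 0.63 for Sult2a2 (−0.13 to 2.43), 0.95 ± 0.61 for Sult2a5 (−0.28 to 2.17) and 0.52 ± 0.39 for Sult1e1 (−0.27 to 1.30). Sult1a1 had −0.05 and Sult1d1 −0.18. The median over the 7 genes was 0.95, against −0.01 over all genes. Sult2a1, Sult2a2 and Sult2a5 correlated at 0.959 to 0.969 over the mice. The 7 genes are thus not independent, and nothing is read from their median. Summed without Sult2a8, the Sult2a genes had 1.47 ± 0.68.

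The chromosomal effect, XX against XY-, was tested in the same fit. In intact mice, averaged over gonads, none of the 7 genes passed in edgeR (10.7% of all genes did), Sult2a1 and Sult2a2 had an unadjusted p under 0.05, and DESeq2 called these 2. The log2 difference was 2.14 ± 0.89 for Sult2a1 (edgeR adjusted p = 0.124), 1.87 ± 0.74 for Sult2a2 (0.102), 2.36 ± 1.97 for Sult2a5 (0.505), 1.60 ± 0.89 for Sult3a1 (0.274) and −0.27 ± 0.39 for Sult1e1 (0.731). The median over the 7 genes was 1.60, against 0.02 over all genes, and nothing is read from it, since the genes are not independent. Summed without Sult2a8, the Sult2a genes had 1.96 ± 0.74, and with it −0.05 ± 0.32. Without intact XX Te mouse 37366 Sult2a2 had 1.1 and without intact XX Te mouse 11587 Sult2a5 had 1.28. Sult1e1 ranged from −0.61 to −0.14 over the fits that left out 1 mouse.

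The chromosomal effect within intact mice with ovaries was not among the planned contrasts, and these mice are part of the contrast the genes were chosen on. In it, 3 of the 7 genes were higher in XX than in XY- at an edgeR adjusted p under 0.05, where 7.79% of all genes passed and 2% passed as higher in XX. These were Sult2a5 (log2 difference 3.18 ± 0.87, adjusted p = 0.0143), Sult2a1 (3.26 ± 1.05, 0.0460) and Sult3a1 (2.23 ± 0.72, 0.0462). Sult2a2 had 2.65 ± 0.94 (0.0742) and Sult1e1 −0.29 ± 0.45 (0.782). For each of the 8 genes the 6 XX Ov mice overlapped the 6 XY- Ov mice (the groups lay apart for 4.28% of all genes). In DESeq2 2 genes passed, Sult2a1 and Sult2a2 (adjusted p = 0.0392), whereas Sult2a5 (0.0517) and Sult3a1 did not. In edgeR the call of Sult2a5 was kept in 47 of 48 fits that left out 1 mouse and lost without XX Ov mouse 66804 (adjusted p = 0.0604). The calls of Sult2a1 and Sult3a1 were kept in 32 and 30 of these 48 fits, with adjusted p up to 0.102 and 0.192. Sult2a1 was lost without XX Ov mice 49580, 66804 or 97856, XY- Ov mice 48525, 53085, 69065 or 89895 and 9 mice of other groups, and Sult3a1 without XX Ov mice 49580, 69572 or 97856, XY- Ov mice 36870, 48525, 53085 or 69065 and 11 mice of other groups. Sult2a2 was called without XX Ov mouse 81790 (adjusted p = 0.0435). With the Sult2a genes but Sult2a8 summed, the log2 difference was 2.89 ± 1.0 (adjusted p = 0.0672).

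Markers of leukocytes moved with the same comparison. All 5 lymphocyte markers were detected, and their summed level was 15.9 to 46.0 CPM in intact XX Ov and 79.5 to 144 CPM in intact XY- Ov mice. The 4 neutrophil markers summed to 1.66–17.7 CPM and 39.8–781 CPM in these groups. The Kupffer cell markers (4 of 5 in the table) summed to 168–356 CPM and 168–628 CPM, and the 7 hepatocyte markers to 91800–139500 CPM and 72240–116400 CPM. The part of these markers in the chromosomal difference of the Sult genes was not tested.

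The 6 intact XY- Ov mice fell into 3 with low and 3 with high SULT2A levels. Mice 48525, 53085 and 69065 had 8.40, 1.48 and 24.5 CPM of Sult2a2 and 0.791, 0.478 and 5.90 CPM of Sult2a1. Mice 36870, 799 and 89895 had 278, 448 and 341 CPM of Sult2a2 and 133, 183 and 106 CPM of Sult2a1. Sult3a1 was also lower in the former, at 3.59, 5.22 and 1.85 CPM against 12.2, 37.1 and 56.9 CPM. Sult1a1 did not separate them, with 425, 521 and 645 CPM in the former and 491, 686 and 975 CPM in the latter.

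**Figure D4:**
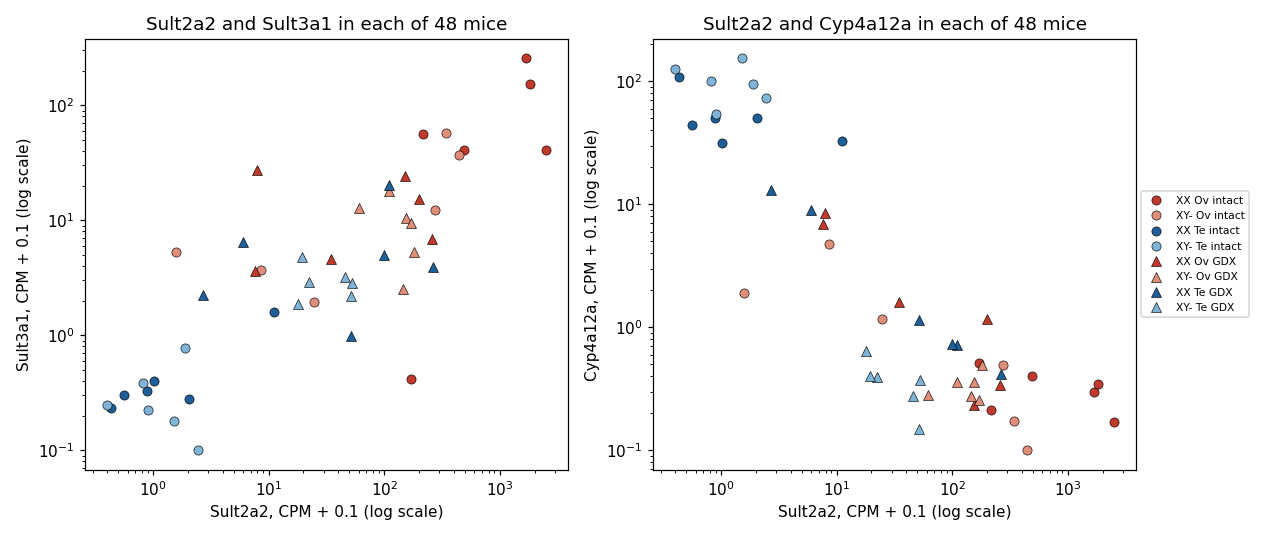
Sult2a2 against Sult3a1 (left) and against Cyp4a12a (right) in each of the 48 mice, as CPM + 0.1 on log axes, with circles for intact and triangles for GDX mice. Intact mice with testes have the highest Cyp4a12a, at least 31.3 CPM, and Sult2a2 of at most 11.1 CPM. In the intact XY- Ov, GDX XX Ov and GDX XX Te groups the mice with the lowest Sult2a2 have more Cyp4a12a than the others of their group. This does not hold in GDX XY- Ov mice.

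Cyp4a12a, a cytochrome P450 known for male-typical expression in mouse liver and added after its values were seen, was read in the same mice without a test. The 3 intact XY- Ov mice with low Sult2a2 had 4.69, 1.82 and 1.07 CPM of Cyp4a12a and the 3 others 0.395, 0 and 0.0728 CPM, while every intact mouse with testes had at least 31.3 CPM. Among GDX mice the same held for XX Ov mice 29264 and 70608 (7.49 and 7.80 CPM of Sult2a2, 6.83 and 8.43 CPM of Cyp4a12a) and for XX Te mice 69358 and 93559 (2.60 and 5.90 CPM of Sult2a2, 12.9 and 8.98 CPM of Cyp4a12a). Every other GDX mouse had at most 1.51 CPM of Cyp4a12a. In GDX XY- Ov mice the pattern did not hold, at no more than 6 reads of Cyp4a12a in a mouse. There mouse 63079 had the lowest Sult2a2 (61.0 CPM) and 0.182 CPM of Cyp4a12a. Mouse 72268 had the highest of both (183 and 0.393 CPM). Sult3a1 did not follow in each mouse. GDX XX Ov mouse 70608 had the highest Sult3a1 of its group (27.4 CPM) beside a Sult2a2 of 7.80 CPM, and intact XX Ov mouse 81790 had 0.312 CPM of Sult3a1 beside 171 CPM of Sult2a2.

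In GDX mice the chromosomal effect passed for none of the 7 genes in edgeR or DESeq2, where 34.3% of all genes passed in edgeR, and Sult1e1 had an unadjusted p under 0.05 in both. Its log2 difference was 0.94 ± 0.39 (95% interval 0.15 to 1.72, edgeR adjusted p = 0.0569). It passed in 6 of 48 fits that left out 1 mouse (GDX XX Ov mouse 24126, GDX XX Te mouse 69358, GDX XY- Te mice 59091 and 69848, GDX XY- Ov mouse 76112 and intact XX Ov mouse 81790, with adjusted p down to 0.0346). The other values were 0.85 ± 0.61 for Sult2a5, 0.83 ± 0.53 for Sult3a1, 0.81 ± 0.70 for Sult2a1 and 0.51 ± 0.63 for Sult2a2, and 0.63 ± 0.67 for the Sult2a genes summed without Sult2a8. Without GDX XX Te mouse 16037 Sult2a1 had 0.16, Sult2a2 0.15 and Sult2a5 0.42, and without GDX XX Te mouse 00575 Sult3a1 had 0.41. Without GDX XX Ov mouse 11059 Sult2a1 had 0.50 and Sult2a2 0.28. The median over the 7 genes was 0.81, against 0.08 over all genes, and nothing is read from it, since the genes are not independent. Lymphocyte markers summed to 11.4–28.8 CPM in GDX XX and 107–308 CPM in GDX XY- mice, and their part in these values was not tested.

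The chromosomal effect differed between GDX and intact mice for none of the 7 genes in edgeR or DESeq2 (2.12% of all genes passed in edgeR), with an unadjusted p under 0.05 for Sult1e1 in both. Its difference was 1.21 ± 0.55 (edgeR adjusted p = 0.301), and those of Sult2a2 and Sult2a1 were −1.36 ± 0.97 (0.562) and −1.33 ± 1.14 (0.623). The dependence of the gonadal difference on the sex chromosomes passed for none of the 7 genes and for 0% of all genes in edgeR, in intact or in GDX mice. None of the 7 had an unadjusted p under 0.05, and DESeq2 called none of them either. The intervals were wide, from −1.53 to 6.0 for Sult2a1 in intact mice (estimate 2.24 ± 1.87) and from −5.53 to 0.18 in GDX mice (−2.68 ± 1.42).

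The other 12 sulfotransferase genes of the table gave 7 that could be tested. In the gonadal effect, where 25.3% of all genes passed, 4 of them were higher with ovaries and 1 lower. This list was drawn up with earlier results of these data known, so no p is given here and nothing is read from the count. Sult2a3, another close copy, was higher by 7.94 ± 1.01, Sult3a2, a paralog of Sult3a1, by 5.54 ± 0.78 and Sult1c2 by 1.44 ± 0.19. Sult2a4 also passed, but it had 135 reads in the 12 mice with ovaries and 1 read in the 12 with testes, a ratio of 129 with a 95% counting interval of 22.7 to 5122. Sult5a1 fell by 1.19 ± 0.27. Sult1b1 and Sult2a8 did not pass, with 0.13 ± 0.18 and −0.05 ± 0.33.

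Sult2a8, a sulfotransferase acting on bile acids that is more distant in sequence from the other Sult2a genes, differed from its family in where its level changed. Intact mice had 343, 2192 and 4324 CPM in XX Ov, 698, 2142 and 5234 CPM in XY- Ov, 849, 1775 and 3144 CPM in XX Te and 581, 3828 and 4641 CPM in XY- Te. In GDX mice the 4 medians lay between 277 and 581 CPM. It fell by 2.49 ± 0.34 with castration and by 2.77 ± 0.35 with ovariectomy. Intact mice with testes had at least 581 CPM of Sult2a8 against at most 11.1 CPM of Sult2a2. The sum over all Sult2a genes showed no gonadal difference that passed (0.53 ± 0.32).

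With castration 2 more of the 7 other sulfotransferases rose, Sult2a3 by 3.86 and Sult2a4, the latter on 25 reads against 1. Sult5a1 (−1.94) and Sult1b1 (−0.62) fell with Sult2a8, while Sult1c2 had 0.14 and Sult3a2 45 reads against 8 and neither passed. With ovariectomy 5 fell and none rose, namely Sult2a8, Sult2a3 (−1.91), Sult3a2 (−1.86), Sult1c2 (−1.11) and Sult1b1 (−0.85). Of all genes 63.3% passed with castration and 69.4% with ovariectomy, and nothing is read from these counts. In the chromosomal effect in intact mice with ovaries Sult3a2 (3.97, edgeR adjusted p = 5.40e-05), Sult2a3 (3.14, 0.0474) and Sult2a4 (2.22, 0.0481) passed, all higher in XX. There 7.79% of all genes passed, and 2% passed as higher in XX. After GDX, where 34.3% of all genes passed, Sult3a2 alone passed as higher in XX (1.79, 0.0339). Untested for low counts were Sult6b1 with 167 reads over all 48 mice, Sult2b1 with 45, Sult4a1 with 40, Sult6b2 with 1 and Sult1c1 with 0.

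Of 9 genes that make, carry or recycle the sulfate donor, 8 could be tested. In the gonadal effect 2 were higher with ovaries, Papss2 (PAPS synthase, 0.45 ± 0.13) and Slc35b2 (Golgi PAPS transporter, 0.36 ± 0.13), and 1 was lower, Papss1 (−0.58 ± 0.13). With castration 2 rose, Papss2 (0.79 ± 0.13) and the sulfate transporter gene Slc26a1 (0.68 ± 0.12), and 4 fell, with Slc35b3 (−0.80 ± 0.17) and Slc35b2 (−0.65 ± 0.13) the lowest. With ovariectomy 2 rose, Slc26a1 (0.69 ± 0.12) and Papss1 (0.51 ± 0.13), and 4 fell, again with Slc35b2 (−1.03 ± 0.13) and Slc35b3 (−0.99 ± 0.17) the lowest. Among GDX mice Papss2 (0.37 ± 0.13), Bpnt1 (0.35 ± 0.07) and Bpnt2 (0.27 ± 0.06) were higher and the sulfate transporter gene Slc26a2 (−0.27 ± 0.08) lower in XX. None of the 8 passed for the chromosomal effect in intact mice. Of all genes 25.3% passed in the gonadal, 63.3% in the castration and 69.4% in the ovariectomy effect. For the chromosomal effect the shares were 10.7% in intact and 34.3% in GDX mice. Nothing is read from the counts of this list. The steroid sulfatase gene Sts was too low to be tested.

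Of 12 nuclear receptor genes with steroid, bile acid or related ligands, or known as regulators of Sult genes, 11 could be tested. In the gonadal effect 4 were higher with ovaries, led by the estrogen receptor gene Esr1 (1.02 ± 0.13) and Nr1h3 (LXRα, 0.53 ± 0.13), and 4 were lower, led by Hnf4a (−0.43 ± 0.12) and Rora (−0.37 ± 0.11). With castration Esr1 (1.52 ± 0.13) and 4 others rose and Nr1h3 (−0.28 ± 0.13) fell. With ovariectomy Esr1 (0.69 ± 0.12) and 8 others rose and Nr1h3 (−0.88 ± 0.13) fell. Nr1i2 (PXR, 0.29 ± 0.09) and 1 other were higher in intact XX than XY- mice. In GDX mice 5 were higher in XX, among them Ppara (0.47 ± 0.12), and Nr1h3 was lower (−0.74 ± 0.13). Nothing is read from these counts either. The shares of all genes were 25.3% in the gonadal, 63.3% in the castration and 69.4% in the ovariectomy effect. They were 10.7% and 34.3% for the chromosomal effect in intact and in GDX mice. For the former gonad after GDX none of the 26 tested genes of these lists passed in edgeR (4 at an unadjusted p under 0.05) or in DESeq2. For the chromosome by GDX interaction none passed in edgeR (3 unadjusted) and 1 in DESeq2. For the 2 chromosome by gonad interactions none passed in either, with 1 unadjusted in intact and 0 in GDX mice.

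The genes with the most similar pattern over the 48 mice were found by Pearson correlation of log2 CPM, given as a description, since all mice share groups and libraries. For Sult2a1, Sult2a2 and Sult2a5 the closest gene was Sult2a3 (r = 0.980, 0.953 and 0.952), followed by the pseudogene Sult2a-ps2 (0.927, 0.896 and 0.927). Sequence shared with this pseudogene was not examined. For Sult3a1 the closest were Rsph4a (0.903), Cyp2c69 (0.879) and Eci3 (0.868), for Sult1e1 Umps (0.731), Cdkn2c (0.716) and Gypc (0.706), for Sult1a1 the genes ENSMUSG00000117084 (0.853), Pla1a (0.849) and ENSMUSG00000108822 (0.842), and for Sult1d1 Tial1 (0.939), Upp2 (0.930) and BC025446 (0.927). Among the members the Sult2a genes correlated at 0.959 to 0.969, Sult2a2 with Sult3a1 at 0.816 and Sult1a1 with Sult1d1 at 0.775.

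Xist was at least 166 CPM in XX and at most 7.5 CPM in XY- mice, and the Y-linked gene Ddx3y at least 44.2 CPM in XY- and at most 4.19 CPM in XX mice. Intact XX Te mouse 37366 had the highest levels of 4 Y-linked genes among XX mice (Ddx3y 4.19, Eif2s3y 4.26, Uty 2.10 and Kdm5d 1.08 CPM), and where these reads come from was not tested. It also had the highest Sult2a1 (5.95 CPM, 88 reads), Sult2a2 (11.1 CPM, 164 reads) and Sult3a1 (1.49 CPM, 22 reads) of the intact mice with testes, against at most 0.908, 1.94 and 0.303 CPM in the other 5 of its group. Without this mouse, an alternative added after its values were seen, all 7 genes passed in the gonadal and 5 in the castration effect. With all mice, 25.3% and 63.3% of all genes passed in these effects, and nothing is read from the counts. All 7 hepatocyte markers were detected in each group. Exocrine pancreas markers summed to 5.82–41.0 CPM in intact and 3.77–9.43 CPM in GDX mice with Pnlip at 0 in every mouse. In intact mice the lymphocyte markers summed to 15.9–144 CPM with ovaries and 11.1–81.8 CPM with testes and the Kupffer markers to 168–628 and 135–414 CPM. The part of these markers in the gonadal difference was not tested.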

How the data were processed

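Liver RNA was sequenced from 48 FCG mice, 6 in each of 8 groups named by the sample labels. The authors aligned reads to GRCm39 and counted them with STAR (version 2.7.10a in the submitters' processing notes, which also name DESeq2 1.36.0), and deposited whole-number counts per gene without normalization. The annotation release and the strand setting are not given in the sources used here. The 4 summary lines (reads unmapped, multimapping, ambiguous or outside genes) were left out of library sizes and tests. Symbols matched 31020 of 55414 identifiers (56.0%), and 19554 genes had 0 reads in every mouse.

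All 48 mice entered the main fit. Group means were fitted in R 4.3.3 with edgeR 4.0.16 (TMM, filterByExpr, robust quasi-likelihood F tests, two-sided, Benjamini-Hochberg adjustment over the 15414 tested genes, threshold 0.05). Contrasts were averaged over the other factor, and SEs come from the same fit. The members and gene lists were chosen with earlier results of these data known. No p is therefore given for either in the gonadal, castration and ovariectomy effects, and no p is adjusted over a list alone. The text names the 8 members, every other Sult gene, of each other list at most the 2 highest and 2 lowest that passed in a contrast, and per tested member the 3 genes with the highest Pearson correlation. Any other gene is said to have been chosen after its values were seen. Some genes of the lists are counted but not reported by name here.

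Alternatives were other scalings (size factors of DESeq2, or library totals), DESeq2 1.42.0, no filter, a mean of at least 1 CPM, the compared arms alone, 1 surrogate variable (sva 3.50.0), a fold above 1.5, all Sult2a genes summed, mouse 95271 left out (as in the study's plots), and each mouse left out. Summing without Sult2a8 and leaving out mouse 37366 were chosen after seeing the data. The chromosomal effect within intact mice with ovaries was not among the planned contrasts. On simulated counts of 15026 genes for the comparison of former gonads, 196 of 200 changed genes were recovered with 13 false calls. The changed genes were drawn from genes above a minimum mean count and changed by set folds. Unchanged genes had the same mean in all groups. This recovery is therefore not the power for the Sult genes. Replicates were separate mice. Floors of 3 reads (0.150 to 0.230 CPM) and intervals of single ratios cover counting error only. Sequences came from NCBIM37 (first exons) and RefSeq (promoters), neither the authors' build. Levels and plots used Python 3.11.15 with pandas 2.3.3, numpy 2.4.6 and matplotlib 3.10.9.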

Additional observations from a re-analysis of the deposited data

Results flagged for a closer look

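Of 60 groups of 6 mice in which a member had reads in some mouse, 11 held 1 mouse whose gap to the nearest other mouse, as a share of the group's range, was above Dixon's 95% critical value. Chance flags about 1 in 20 groups of normal values, but that rate does not carry over to sparse counts or to genes that vary together. In 3 of the 11 groups (Sult2a5 in intact XY- Te, Sult2a6 in GDX XY- Ov and in GDX XX Te) a single mouse had all reads, which sets the ratio to 1 by construction. Intact XX Te mouse 37366 was the highest of its group for Sult2a1 (5.95 CPM, others 0.205 to 0.908), Sult2a2 (11.1 CPM, others 0.330 to 1.94) and Sult3a1 (1.49 CPM, others 0.132 to 0.303). Intact XX Te mouse 11587 was the highest for Sult2a5 (0.424 CPM, others at most 0.0677). Intact XY- Te mouse 70314 was the highest of its group for Sult2a1 (2.37 CPM, others 0.214 to 0.700) and had the only Sult2a5 reads of that group (0.170 CPM). GDX XX Te mouse 16037 was the highest for Sult2a1 (138.9 CPM, others 0.628 to 31.1) and had the only Sult2a6 reads of its group (0.190 CPM). GDX XX Te mouse 00575 was the highest for Sult3a1 (20.3 CPM, others 0.888 to 6.40). For Sult2a6, intact XX Ov mouse 66804 had 0.356 CPM (others at most 0.133) and GDX XY- Ov mouse 88616 had 0.0517 CPM from the 1 read of its group. The Sult2a5 and Sult2a6 values rest on few reads.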

How the results depend on the processing

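No paired analysis was possible because the labels give each mouse an identifier of its own and no number shared between groups. Counts are of the 7 tested members or the 26 tested genes of the other lists past an adjusted p of 0.05. In the gonadal effect (7 members, 16 listed genes), summing all Sult2a genes left 4 members, which merges Sult2a1, Sult2a2 and Sult2a5 by construction, the compared arms alone left 7 listed genes and a fold above 1.5 left 6. In the castration effect (5 members) either sum of Sult2a genes left 3, with opposite directions of the sum (4.66 without and −2.23 with Sult2a8). In the ovariectomy effect (6 members, 21 listed genes) 1 surrogate variable left 2 members and turned Sult2a5 to 0.45 on the log2 scale, and a fold above 1.5 left 11 listed genes. In the chromosomal effect in intact mice (0 members, 2 listed genes) DESeq2 called 2 members. Listed genes were 1 with library totals or no filter, 0 with the compared arms alone or a fold above 1.5, and 5 with 1 surrogate variable. In intact mice with ovaries (3 members) 1 was called with library totals, no filter, a mean of at least 1 CPM, the compared arms alone or either sum. DESeq2 called 2 (Sult2a5 and Sult3a1 lost, Sult2a2 gained), and Sult3a1 was also lost with size factors of DESeq2. In the chromosomal effect after GDX (0 members, 11 listed genes) 1 member was called with the compared arms alone or with 1 surrogate variable. Listed genes were 4 with library totals, 7 with no filter, 17 with the compared arms alone and 2 with a fold above 1.5. For the chromosome by GDX interaction (0 listed genes) library totals gave 2, and DESeq2 or 1 surrogate variable 1. Apart from the sums, the cause was not tested. Leaving out each mouse gave 7 to 7 members and 13 to 17 listed genes in the gonadal effect, 5 to 5 and 15 to 18 in the castration effect, 5 to 6 and 21 to 22 in the ovariectomy effect, 0 to 0 and 1 to 3 in the chromosomal effect in intact mice, 1 to 4 members in intact mice with ovaries, 0 to 1 and 8 to 13 after GDX, 0 to 0 and 0 to 2 for the chromosome by GDX interaction, and 0 for the former gonad and the chromosome by gonad interactions. Of the other values, 560 stayed the same. For a log2 difference this means the same direction and call, and for a group level a move within 1 SD. Another 8 passed only under an alternative, 22 lost a call and 1 reversed. With library totals the Sult1a1 level of GDX XY- Ov (411 CPM) and GDX XY- Te (430 CPM) and the Sult1d1 level of GDX XY- Ov mice (167 CPM) moved by over 1 SD. Over all genes, library totals moved the median log2 difference from 0.07 to 0.27 for castration, from 0.06 to 0.27 for ovariectomy, from 0.08 to −0.10 for the chromosomal effect after GDX, from 0.08 to −0.03 for that in intact mice with ovaries and from 0.04 to −0.12 for the chromosome by GDX interaction, and the share of calls that were higher from 52.7% to 69.4%, 51.9% to 66.1%, 56.8% to 18.8%, 25.7% to 5.61% and 19% to 6.97%, and in the gonadal and chromosomal effects in intact mice from 55.6% to 68% and from 39.9% to 24.5%. Depth limits Sult1e1, Sult2a5 and Sult2a6, where few reads were counted, and Sult3a1 in intact mice with testes.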
